A study of Mus musculus with 14 samples.

Results

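Polycomb and de novo DNA methylation genes were followed through the mouse small intestine as a set of 9 genes, namely Ezh2, Suz12, Eed, Jarid2, Bmi1, Rnf2, Dnmt3a, Dnmt3b and Hells. Members were the probe sets annotated to exactly 1 of these symbols, which gave 27 of the 20380 probe sets with a single symbol and 9 of the 12393 genes. Suz12 had 6 probe sets, Rnf2 and Dnmt3a had 5 each, Jarid2 had 3, Eed, Bmi1 and Dnmt3b had 2 each, and Ezh2 and Hells had 1 each.

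Villi and crypts (3 arrays each) were isolated from small intestines of C57BL/6 mice aged 12 weeks. Embryonic day 12 (E12) endoderm and E12 mesenchyme (4 arrays each) were layers of collagenase-digested fetal intestine, 3 from pools of 10 to 12 fetuses and 1 from a pool of 35, and no label gives a strain for the embryos. No genotype or treatment was recorded for any group. A first table held the 6 adult arrays with the E12 pair from 35 fetuses, and a second table, normalized separately, held the other 6 E12 arrays, so comparisons stayed within a table.

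Polycomb proteins keep genes silent through 2 complexes. Polycomb repressive complex 2 (PRC2) methylates histone H3 through its enzyme Ezh2, which works only together with Suz12 and the methyl mark reader Eed, while Jarid2 helps bring the complex to its targets. PRC1 ubiquitinates a histone through Rnf2, also called Ring1B, and Bmi1 is a partner that raises its activity. Dnmt3a and Dnmt3b place new methyl groups on DNA, and Hells, also called Lsh, is a chromatin remodeller needed for methylation of repeats. In the intestinal epithelium of mice PRC2 is known to support division of crypt cells and to hold the arrest gene Cdkn2a silent, and Bmi1 has served in lineage tracing as a marker of some slowly cycling crypt cells.

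The start sites of the 9 genes lie in sequence with more CpG than the median promoter window. Windows of 3 of them hold letters that E2F factors, regulators of genes of DNA replication, are known to bind. RefSeq promoter windows (assembly GRCm38.p6, 250 bases before to 50 after each start) matched 9 of 9 genes, in 12 windows. These windows held 17 to 47 CpG, against a median of 7 and an upper quartile of 20 over all 32851 windows. The Eed window (17) and 1 window of Dnmt3a (18) lay under that quartile. The letters TTTGGCGC, TTTCCCGC, TTTCGCGC and TTTGCCGC were searched on both strands, and a match was found for Ezh2, Suz12 and Hells. Such a match occurred in 2.265% of all windows and in 4.952% of the 10320 windows with at least 17 CpG. The letters CCAAT, on either strand, were found in windows of 4 genes (Ezh2, Suz12, Eed and Jarid2) and in 37.408% of all windows and 34.06% of those with at least 17 CpG, and TTTGAA or TTTAAA in windows of 4 genes (Suz12, Eed, Jarid2 and Dnmt3b) and in 27.585% of all windows and 12.355% of those with at least 17 CpG. The 3 windows with an E2F-type match are shown to the thirtieth base after the start. The Jarid2 window beside them was chosen by its level in adult tissue, so these windows do not compare letters with levels. Windows of Bmi1, Rnf2 and Dnmt3a held none of the letters searched. By the probe sets used below, these genes differed by -1.83, -2.54 and -2.40 between crypts and E12 endoderm, and Suz12, with a match, by -0.97. A link between letters and levels was not tested. Capital runs of 8 letters are the E2F-type matches and runs of 5 are CCAAT or its complement, and the 2 kinds do not overlap.
Ezh2, chr6:47595001-47595280, minus strand: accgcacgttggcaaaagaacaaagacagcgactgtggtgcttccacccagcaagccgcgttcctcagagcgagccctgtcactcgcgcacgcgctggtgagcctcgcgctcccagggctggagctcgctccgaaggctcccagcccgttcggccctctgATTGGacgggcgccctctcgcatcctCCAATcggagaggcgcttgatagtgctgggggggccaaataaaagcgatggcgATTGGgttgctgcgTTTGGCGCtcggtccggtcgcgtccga
Suz12, chr11:79992856-79993135, plus strand: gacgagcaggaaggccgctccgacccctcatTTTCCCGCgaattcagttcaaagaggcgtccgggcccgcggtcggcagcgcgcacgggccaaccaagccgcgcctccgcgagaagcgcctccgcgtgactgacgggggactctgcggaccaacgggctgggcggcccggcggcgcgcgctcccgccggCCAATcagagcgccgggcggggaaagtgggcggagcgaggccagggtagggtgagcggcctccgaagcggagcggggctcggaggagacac
Hells, chr19:38930740-38931019, plus strand: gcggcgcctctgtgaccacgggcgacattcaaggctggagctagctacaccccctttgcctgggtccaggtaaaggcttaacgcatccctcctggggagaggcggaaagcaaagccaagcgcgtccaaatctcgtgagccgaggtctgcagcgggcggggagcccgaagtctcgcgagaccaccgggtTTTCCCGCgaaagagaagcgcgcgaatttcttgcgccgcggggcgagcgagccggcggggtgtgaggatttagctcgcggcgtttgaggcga
Jarid2, chr13:44730524-44730803, plus strand: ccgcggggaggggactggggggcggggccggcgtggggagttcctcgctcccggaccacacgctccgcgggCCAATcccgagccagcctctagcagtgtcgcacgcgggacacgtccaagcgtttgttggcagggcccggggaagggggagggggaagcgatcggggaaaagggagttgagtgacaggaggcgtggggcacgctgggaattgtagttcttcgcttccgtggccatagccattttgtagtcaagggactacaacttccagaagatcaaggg
With the first transcribed base as position 1, the E2F-type letters began at position 4 for Ezh2, -219 for Suz12 and -62 for Hells. A match is a run of letters and not a measured site of binding.

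Values are deposited log2 signals, in which a difference of 1 is a doubling, and levels of different probe sets cannot be set against each other. Each gene is read from the probe set whose mean signal was highest in the fit. Differences are log2 differences ± SE from limma, and a gene was called at a Benjamini-Hochberg adjusted p under 0.05 over all genes tested. The tested genes lay above the 30th percentile of the table (5.78 in the first, 4.74 in the second) in at least 3 arrays, and all 9 genes were tested in every comparison. Array medians were 6.67 to 6.80 in the first table and 6.17 to 6.34 in the second. The mean of 6 epithelial markers was 11.9 to 12.4 in villi, 11.1 to 11.6 in crypts, 10.8 in the E12 endoderm array and 6.23 in the E12 mesenchyme array of the first table. Leukocyte markers averaged 7.37 to 7.80 in villi, 6.40 to 6.81 in crypts and 5.65 in E12 endoderm, and 7 mesenchymal markers 6.47 to 6.64, 6.32 to 6.43 and 7.57 in the same groups. Among the leukocyte markers Csf1r and Cd79a went the other way, with lower means in villi (8.14 and 6.02) than in crypts (8.71 and 6.65). The mean of 4 crypt base markers was 8.19 to 9.09 in villi, 10.7 to 11.1 in crypts and 7.08 in E12 endoderm. Of these, Lyz1 ranged from 10.1 to 13.0 over the villi. The part that these other cells, and any crypt cells in the villus arrays, play in the results below was not tested. In whole tissue layers, fewer cells of a type and less RNA per cell cannot be told apart.

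Most of the 9 genes were lower in adult crypts than in E12 endoderm, and they were lower in villi too. Against the lone E12 endoderm array of the first table, 6 of the 9 genes were lower in crypts and 0 higher, where 15.1% of the 10081 genes tested were lower and 8.20% higher. The limma fit gave 7 lower and 0 higher at an unadjusted p under 0.05. In villi 7 were lower and 0 higher, where 22.1% of all genes were lower and 17.0% higher, and at an unadjusted p under 0.05 the counts were 7 and 1. The median difference of the 9 genes was -1.83 in crypts and -2.11 in villi, against 0.05 and 0.13 over all genes tested. After quantile normalization the calls over all genes in crypts split into 1014 higher and 1170 lower, against 827 and 1520 here, and 5 of the 9 genes were lower. Crypts and villi share the same E12 array in these comparisons, whose own spread is unknown and was taken to be that of the adult groups.

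**Figure D1:**
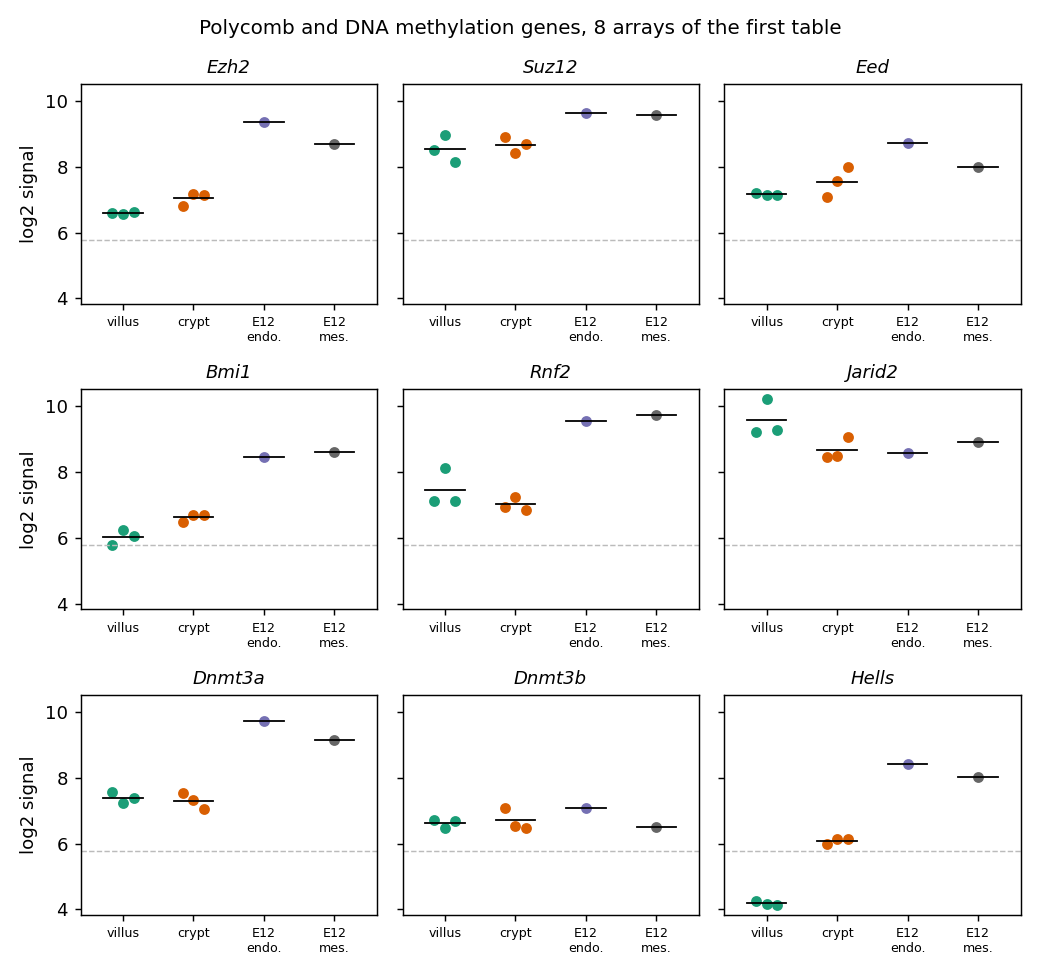
Log2 signal of the 9 genes (vertical axis) in the 8 arrays of the first table, with a point per array and a line at the group mean; the dashed line is the 30th percentile of the table. The Jarid2 villi lie above the lone E12 endoderm array, and Dnmt3b overlaps. In the other panels this array lies above all 6 adult arrays, and how many of all genes are placed so was not counted.

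Of the 4 PRC2 members, Ezh2, the methyltransferase, had the largest difference in both comparisons. It stood at 6.59, 6.56 and 6.61 in villi V12, V41 and V275, at 6.81, 7.18 and 7.14 in crypts K12, K21 and K41, and at 9.36 in E12 endoderm. No adult array came near the embryonic one. The difference was -2.31 ± 0.21 in crypts (adjusted p = 0.000459, limma) and -2.77 ± 0.21 in villi (adjusted p = 9.8e-05), a 4.97-fold and a 6.82-fold lower signal. Eed, which binds the methyl mark that Ezh2 makes, stood at 7.21, 7.14 and 7.14 in villi, at 7.08, 7.56 and 7.99 in crypts and at 8.72 in E12 endoderm. It was lower by -1.18 ± 0.32 in crypts (adjusted p = 0.0343) and by -1.56 ± 0.32 in villi (adjusted p = 0.00682). The crypt call for Eed was lost without crypt K21 (adjusted p = 0.0888) and without villus V275 (adjusted p = 0.0524), and under quantile normalization (adjusted p = 0.0637).

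Suz12, the scaffold of the complex, stood at 8.50, 8.97 and 8.14 in villi, at 8.89, 8.42 and 8.70 in crypts and at 9.63 in E12 endoderm. All adult arrays were lower than the embryonic one, but the villi and crypts spread over most of a log2 unit. Its difference of -1.10 ± 0.33 in villi passed the test (adjusted p = 0.0331), and that of -0.97 ± 0.33 in crypts did not (adjusted p = 0.0716). The villus call was lost without crypt K41 (adjusted p = 0.0547), without villus V12 (adjusted p = 0.0574) and without villus V275 (adjusted p = 0.0586), and the crypt difference was called without villus V41 (adjusted p = 0.0241). Of the 4 probe sets of Suz12 tested there, 1427253_s_at was lower in crypts by -1.10 (adjusted p = 0.0351), 1452364_at was at -0.74 (adjusted p = 0.0702), and 1420020_at, at 6.70 to 7.01 in the adult arrays, was at 0.22 (adjusted p = 0.402).

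Jarid2 ran apart from the core subunits. It stood at 9.22, 10.22 and 9.28 in villi, at 8.46, 8.48 and 9.07 in crypts and at 8.58 in E12 endoderm. All villi lay above the E12 array, and the crypts lay on both sides of it. Neither difference passed the test, at 0.09 ± 0.42 in crypts (adjusted p = 0.890) and 0.99 ± 0.42 in villi (adjusted p = 0.101). The sign in crypts depended on the probe set, since 1422697_s_at gave -1.04 and 1450710_at gave -0.73, neither called. The sign in crypts also turned without crypt K41, to -0.11. In villi the other probe sets lay on both sides of the E12 array. Probe set 1422697_s_at was at -0.14, with villi at 8.15, 9.05 and 8.16 against 8.59 in E12 endoderm. Probe set 1450710_at was at 0.37, with villi at 6.77, 8.45 and 7.13 against 7.08 in E12 endoderm.

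Both PRC1 genes were lower in the adult epithelium. Bmi1 stood at 5.80, 6.25 and 6.07 in villi, at 6.50, 6.70 and 6.69 in crypts and at 8.46 in E12 endoderm. All adult values lay under the embryonic one, and the villi lay close to the 30th percentile of the table. The difference was -1.83 ± 0.23 in crypts (adjusted p = 0.00182) and -2.42 ± 0.23 in villi (adjusted p = 0.000208). Rnf2, the ubiquitin ligase, stood at 7.11, 8.12 and 7.12 in villi, at 6.96, 7.25 and 6.87 in crypts and at 9.56 in E12 endoderm. Villus V41 was the highest adult array and still lay under the embryonic one. The difference was -2.54 ± 0.40 in crypts (adjusted p = 0.00436) and -2.11 ± 0.40 in villi (adjusted p = 0.00463). A further Rnf2 probe set, 1451519_at, was lower by -2.44 in crypts (adjusted p = 0.00216), whereas 1448041_at and 1448043_x_at lay between 6.48 and 6.94 in all 8 arrays and did not pass. When the median of all 5 probe sets in an array stood for the gene, Rnf2 was at -0.03 in crypts and 0.17 in villi and was not called.

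Of the DNA methyltransferases, Dnmt3a was lower in adult tissue by 2 of its 5 probe sets. Its representative 1423063_at stood at 7.57, 7.23 and 7.38 in villi, at 7.53, 7.32 and 7.06 in crypts and at 9.70 in E12 endoderm. The difference was -2.40 ± 0.24 in crypts (adjusted p = 0.000724) and -2.31 ± 0.24 in villi (adjusted p = 0.000314). A second probe set, 1460324_at, stood at 6.27, 6.08 and 6.06 in villi, at 6.18, 6.29 and 6.23 in crypts and at 9.41 in E12 endoderm, a difference of -3.17 in crypts (adjusted p = 0.000159). The other 3 probe sets did not follow. In crypts 1423064_at was at 0.03, 1423065_at at -0.76 and 1423066_at at -0.55, with adjusted p of 0.914, 0.112 and 0.0952. With the median of the 5, Dnmt3a was at -0.53 in crypts and in villi and was not called. The position of each probe set on the gene is not given in the tables used here.

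Dnmt3b also depended on the probe set. The representative 1418351_a_at stood at 6.71, 6.48 and 6.67 in villi, at 7.08, 6.54 and 6.47 in crypts and at 7.07 in E12 endoderm. Crypt K12 lay level with the embryonic array, and the differences of -0.37 ± 0.27 in crypts (adjusted p = 0.343) and -0.45 ± 0.27 in villi (adjusted p = 0.215) did not pass. The second probe set, 1449052_a_at, stood at 6.24, 6.03 and 6.09 in villi, at 6.44, 6.15 and 6.08 in crypts and at 7.55 in E12 endoderm. It was lower by -1.33 in crypts (adjusted p = 0.00578) and by -1.43 in villi (adjusted p = 0.00194). The median of both probe sets was lower by -0.85 in crypts (adjusted p = 0.0367) and by -0.94 in villi (adjusted p = 0.0155). Over all probe sets, 10 of 22 tested were lower in crypts and 12 of 22 in villi, with 0 higher in either. Of the 15207 probe sets tested on the array, 14.5% were lower and 7.54% higher in crypts, and 21.6% were lower and 15.8% higher in villi.

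Hells fell most of the 9 genes in villi. It stood at 4.25, 4.16 and 4.14 in villi, at 5.98, 6.13 and 6.12 in crypts and at 8.42 in E12 endoderm. The groups formed 3 separate steps, with the villi under the 30th percentile of the table. The difference was -2.35 ± 0.18 in crypts (adjusted p = 0.00031) and -4.24 ± 0.18 in villi (adjusted p = 1.6e-05), where the villus signal lies near background and the size is not exact.

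**Figure D2:**
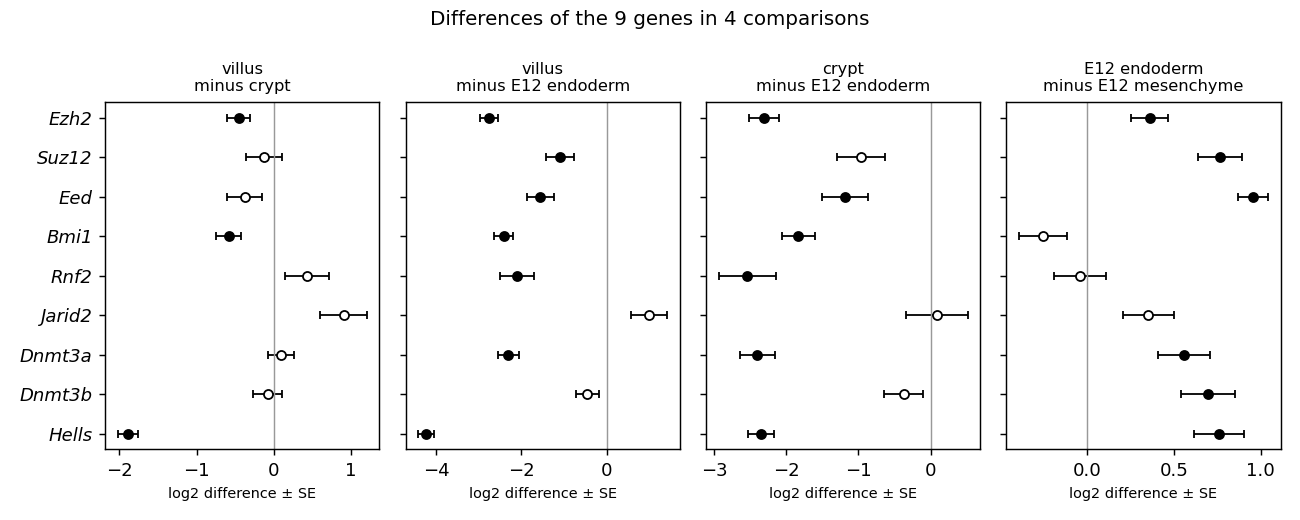
Log2 difference ± SE (horizontal axis, with its own scale in each panel) of the 9 genes in 4 comparisons, with filled points for an adjusted p under 0.05 in limma. The differences of Ezh2, Bmi1, Rnf2, Dnmt3a and Hells from E12 endoderm reach -1.83 to -4.24, while between villi and crypts Hells alone is beyond -1, with a villus level near background.

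Within the adult epithelium Hells, Bmi1 and Ezh2 were called lower in villi than in crypts, Bmi1 and Ezh2 close to the threshold. In villi 3 of the 9 genes were lower than in crypts and 0 were higher, where 15.0% of the 9961 genes tested were lower and 16.9% higher. At an unadjusted p under 0.05 limma gave 3 lower and 1 higher. The median difference of the 9 genes was -0.13, against -0.000902 over all genes tested.

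Hells gave a difference of -1.89 ± 0.13 in villi (adjusted p = 0.000156), whose size is not exact because the villus mean of 4.18 lies near background. It was tested only because its 3 crypt arrays passed the filter on dim genes, while 0 of 3 villus arrays did, so a difference was bound to follow and it dropped out of the fit when any crypt array was left out. Bmi1 was lower by -0.58 ± 0.16 (adjusted p = 0.0279) and Ezh2 by -0.46 ± 0.15 (adjusted p = 0.0499), in both cases with no overlap of the arrays. These 2 calls stood close to the threshold. The second Bmi1 probe set, 1448733_at, was too dim to be tested and went the other way. Its means were 5.02 in villi and 4.79 in crypts, with overlap of the arrays. Bmi1 was not called without crypt K21 (adjusted p = 0.105), crypt K41 (0.0724), villus V12 (0.0762) or villus V275 (0.0679). Ezh2 was not called without crypt K21 (adjusted p = 0.173), crypt K41 (0.115), villus V12 (0.0997), villus V41 (0.101) or villus V275 (0.111). The number of the 9 genes called was 0 without crypt K21, and 1 without crypt K41 (Jarid2, higher) or without villus V275 (Hells, lower).

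Jarid2 was the member with the largest positive difference, at 0.90 ± 0.30 in villi over crypts, and it did not pass (adjusted p = 0.0544). The 3 villi, at 9.22 to 10.22, did not overlap the 3 crypts, at 8.46 to 9.07. Its 3 probe sets gave 0.90, 0.90 and 1.09, and 1422697_s_at passed in the fit of single probe sets (adjusted p = 0.0395). Villus V41 was the highest array for all 3 probe sets, and without it the difference was 0.58 (adjusted p = 0.0846). The remaining members gave -0.13 ± 0.23 for Suz12, -0.38 ± 0.23 for Eed, 0.43 ± 0.28 for Rnf2, 0.09 ± 0.17 for Dnmt3a and -0.08 ± 0.19 for Dnmt3b. Their 95% intervals were -0.68 to 0.41 for Suz12, -0.90 to 0.15 for Eed, -0.23 to 1.08 for Rnf2, -0.31 to 0.49 for Dnmt3a and -0.53 to 0.37 for Dnmt3b, so for Rnf2 a doubling is not outside the interval. Suz12 probe set 1452364_at was lower in villi by -0.54 (adjusted p = 0.0499 in the fit of single probe sets), while 1420020_at was at 0.21 and not called. Over all probe sets of the 9 genes, 1 of 22 tested was higher in villi and 3 were lower. Of the 14906 probe sets tested on the array, 16.6% were higher and 15.1% lower.

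Between the embryonic layers most members were higher in endoderm. Of the 9 genes, 6 were higher in E12 endoderm than in E12 mesenchyme in the second set of arrays and 0 were lower, where 27.7% of the 9441 genes tested were higher and 25.4% lower. At an unadjusted p under 0.05 limma gave 7 higher and 0 lower. The median difference of the 9 genes was 0.56, against 0.03 over all genes tested, and the largest was 0.96. Epithelial markers averaged 11.4 to 11.5 in these endoderm arrays and 5.67 to 6.40 in mesenchyme, and 4 erythroid markers 5.83 to 5.91 in endoderm and 9.98 to 10.1 in mesenchyme. The mesenchyme also carried endothelial markers (4.44 to 4.55 in endoderm, 7.84 to 8.08 in mesenchyme) and 3 markers of neural crest and neurons (4.95 to 5.24 in endoderm, 8.07 to 8.37 in mesenchyme), and the part of these cells in the differences was not tested.

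**Figure D3:**
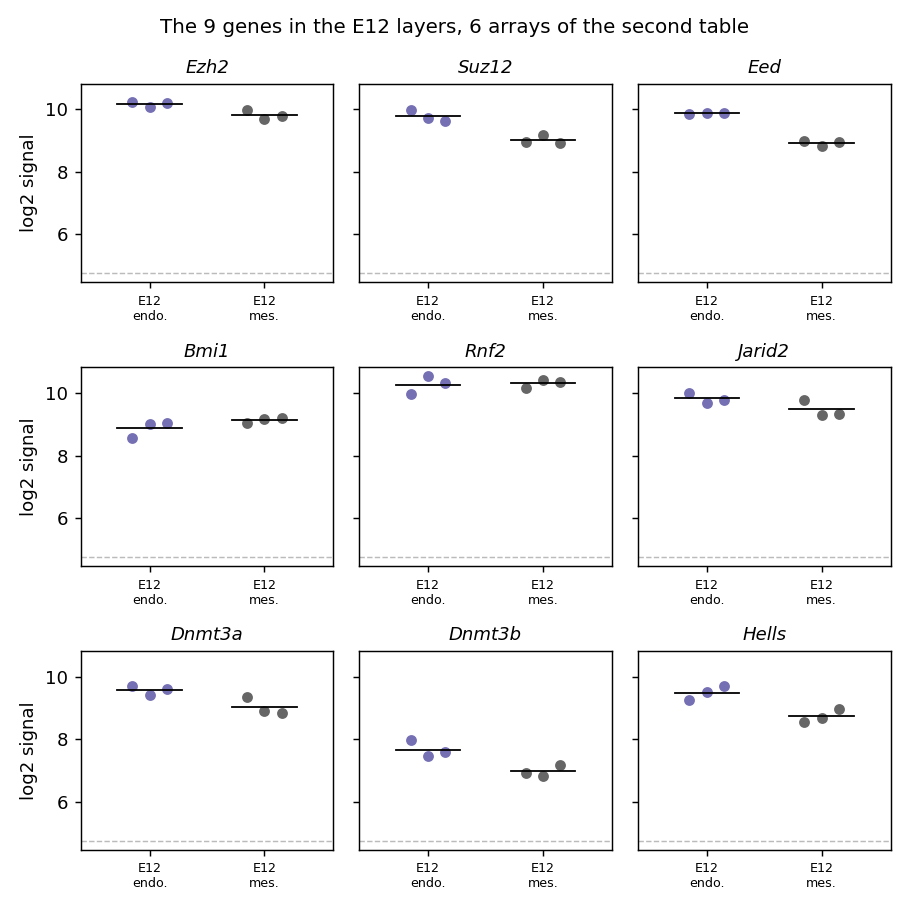
Log2 signal of the 9 genes (vertical axis) in the 3 E12 endoderm and 3 E12 mesenchyme arrays of the second table, with a point per array, a line at the group mean and the 30th percentile of the table dashed. Eed separates the layers by 0.96, and Bmi1, Rnf2 and Jarid2 overlap.

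Eed showed the widest gap, with 9.84, 9.90 and 9.87 in E12 endoderm 2, 3 and 4, against 8.97, 8.81 and 8.96 in E12 mesenchyme 2, 3 and 4. The difference was 0.96 ± 0.09 (adjusted p = 3e-05). Suz12 stood at 9.99, 9.71 and 9.64 in endoderm, against 8.94, 9.19 and 8.91 in mesenchyme (0.77 ± 0.13, adjusted p = 0.00104). Ezh2 stood at 10.24, 10.07 and 10.21 in endoderm, against 9.97, 9.68 and 9.79 in mesenchyme. The 2 layers did not overlap for any of these 3 core genes, though the Ezh2 gap was small (0.36 ± 0.10, adjusted p = 0.0193). The Ezh2 call was lost without mesenchyme 3 (adjusted p = 0.0751), mesenchyme 4 (0.0671) or endoderm 4 (0.0641). Jarid2 stood at 10.00, 9.70 and 9.80 in endoderm, against 9.79, 9.31 and 9.34 in mesenchyme. Its difference of 0.35 ± 0.15 did not pass (adjusted p = 0.0769), and it passed with the replicate number as a block (adjusted p = 0.0197), where same-numbered pools are compared. It also passed without mesenchyme 2 (0.51, adjusted p = 0.0115). Its probe set 1422697_s_at was higher in endoderm by 0.67 (adjusted p = 0.00527), as was the median of its probe sets (0.67, adjusted p = 0.00324), while 1450710_at was at 0.04 (adjusted p = 0.876).

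By their representative probe sets the PRC1 pair did not differ beyond the spread of the arrays. Bmi1 stood at 8.57, 9.02 and 9.06 in endoderm, against 9.04, 9.17 and 9.20 in mesenchyme (-0.25 ± 0.14, adjusted p = 0.165, 95% interval -0.58 to 0.07). Rnf2 stood at 9.97, 10.54 and 10.33 in endoderm, against 10.18, 10.43 and 10.35 in mesenchyme (-0.04 ± 0.15, adjusted p = 0.842, 95% interval -0.39 to 0.31). The layers overlapped for both genes, and endoderm 2 was the lowest array of each. A dimmer Rnf2 probe set, 1448043_x_at, was higher in endoderm by 0.27 (adjusted p = 0.0342 in the fit of single probe sets), with means of 5.25 and 4.99. Of the other Rnf2 probe sets, 1448041_at was at 0.28, 1448042_s_at at -0.02 and 1451519_at at -0.24, none called.

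Hells and both methyltransferases were higher in endoderm. Hells stood at 9.27, 9.52 and 9.70 in endoderm, against 8.57, 8.68 and 8.96 in mesenchyme (0.76 ± 0.14, adjusted p = 0.0023). Dnmt3b, here represented by 1449052_a_at, stood at 7.97, 7.45 and 7.58 in endoderm, against 6.91, 6.82 and 7.18 in mesenchyme (0.70 ± 0.16, adjusted p = 0.0055). The layers did not overlap for either gene. Dnmt3a by 1423063_at stood at 9.71, 9.43 and 9.63 in endoderm, against 9.35, 8.91 and 8.84 in mesenchyme (0.56 ± 0.15, adjusted p = 0.0133). That call was lost without mesenchyme 3 (adjusted p = 0.0535), mesenchyme 4 (0.0588) or endoderm 4 (0.0654).

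Another Dnmt3a probe set ran the opposite way. By 1423064_at the gene stood at 7.52, 7.48 and 7.60 in endoderm, against 8.66, 8.41 and 8.47 in mesenchyme, and it was lower in endoderm by -0.98 ± 0.10 (adjusted p = 0.000163 in the fit of single probe sets). Of the remaining Dnmt3a probe sets, 1460324_at was at 0.49, 1423065_at at 0.58 and 1423066_at at -0.30, none called. The direction for Dnmt3a between the layers therefore holds for the named probe set only. Over all probe sets of the 9 genes, 13 of 26 tested were higher in endoderm and 1 was lower, where 23.7% of the 15096 probe sets tested were higher and 22.4% lower.

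**Figure D4:**
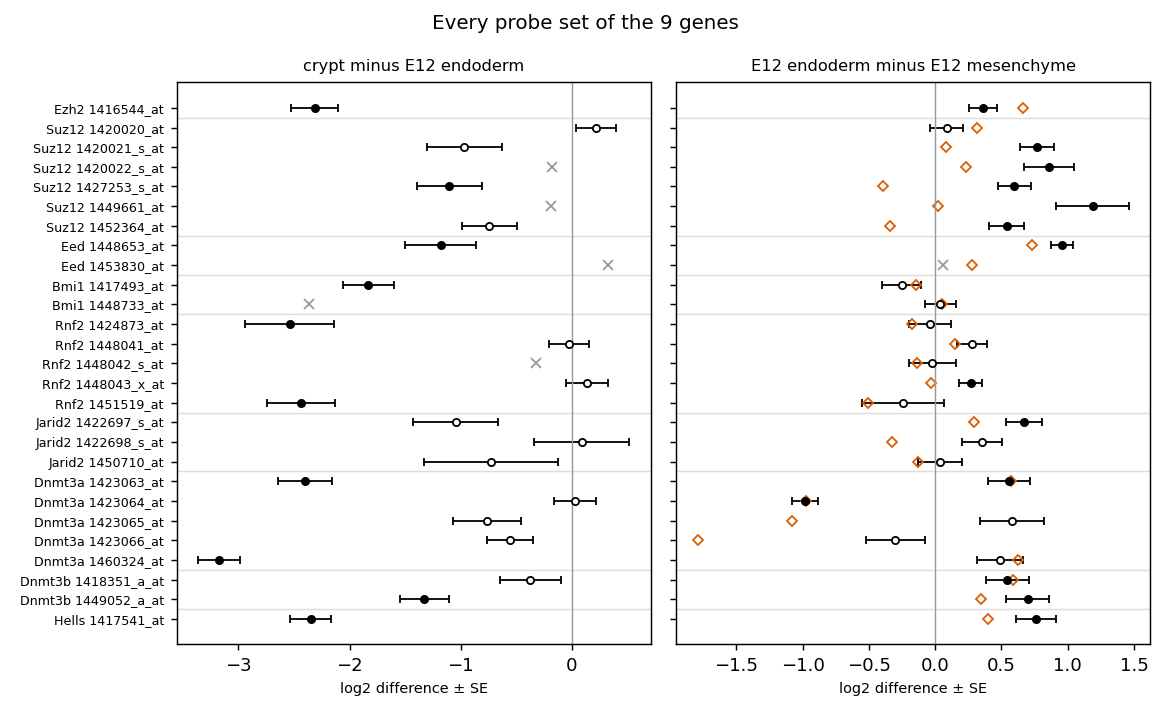
Log2 difference ± SE (horizontal axis) of all 27 probe sets in crypts minus E12 endoderm (left) and E12 endoderm minus E12 mesenchyme in the second table (right); filled points have an adjusted p under 0.05 in limma, grey crosses are differences of means of untested dim probe sets, and open diamonds are the untested E12 pair of the first table. Dnmt3a and Rnf2 hold probe sets that fall by more than 2.4 beside others near 0, and 1423064_at of Dnmt3a is at -0.98 between the layers.

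The E12 pair of the first table, from another pool, allows no test. There the endoderm minus mesenchyme difference was 0.67 for Ezh2, 0.08 for Suz12, 0.73 for Eed, 0.57 for Dnmt3a, 0.58 for Dnmt3b and 0.40 for Hells. Bmi1 was at -0.15, Rnf2 at -0.17 and Jarid2 at -0.33. These signs match those of the second table for all but Jarid2, in the case of Suz12 by a small value only. How often all genes keep their sign was not counted, so the match cannot be read as particular to these genes. Dnmt3a 1460324_at was also higher in the endoderm of the pair, at 9.41 against 8.78 in mesenchyme. For Dnmt3a 1423064_at the pair stood at 7.29 in endoderm, against 8.26 in mesenchyme, 1423065_at at 7.43 against 8.51, and 1423066_at at 7.41 against 9.20. Probe set 1423065_at had the opposite sign in the second table, where it was at 9.85, 8.86 and 9.18 in endoderm, against 8.87, 8.70 and 8.58 in mesenchyme. For Suz12 the 1427253_s_at and 1452364_at probe sets were lower in the endoderm of the pair, by -0.39 and -0.34, but higher in endoderm in the second table, by 0.60 (adjusted p = 0.00679) and 0.54 (adjusted p = 0.0132).

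Across the 8 arrays of the first table, the levels of Ezh2 ran with those of Bmi1 (Pearson r = 0.97), Dnmt3a (0.94) and Hells (0.93). Dnmt3b ran with Ezh2 only weakly (0.28), and Jarid2 ran against it (-0.45). These values describe 8 arrays that share the step between embryonic and adult tissue and are not independent. Among all genes tested, those whose level was most like Ezh2 were Ppp1r8, Rfc4 and Chek1 (r from 0.994 to 0.997). Those most like Bmi1 were Mcm6, Rcn2 and Mcm4 (0.992 to 0.994), those most like Dnmt3a were Llgl1, Vash2 and Ajuba (0.991 to 0.994), and those most like Hells were Nup133, Atr and Ipo5 (0.995 to 0.998).

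Genes of cell division moved in the same comparisons. The mean of 15 such genes was 6.77 to 6.91 in villi, 8.18 to 8.49 in crypts and 10.1 in E12 endoderm of the first table. Of 14 dividing cell genes tested, 13 were lower in crypts than in E12 endoderm (median -1.84), 14 were lower in villi than in E12 endoderm (median -3.61), and 13 were lower in villi than in crypts (median -1.33). In each of these, 0 were higher, also at an unadjusted p under 0.05 in limma. Mki67, a marker of dividing cells, stood at 6.52 ± 0.77 in villi and 10.11 ± 0.12 in crypts (SD, n = 3 each), a log2 difference of -3.59 ± 0.35. The replication helicase gene Mcm6 was lower in crypts than in E12 endoderm by -2.87 ± 0.37 and the nucleotide reductase gene Rrm2 by -3.08 ± 0.60. Between the E12 layers 2 of the 14 were higher in endoderm, Mcm6 and Mcm7 by 0.34 each, and the median was 0.12. The 2 became 1 without mesenchyme 2, mesenchyme 4, endoderm 3 or endoderm 4. The part of the dividing cells in the changes of the 9 genes was not tested.

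Other PRC2 genes were split. Of 7 tested, 4 were lower and 1 higher in crypts than in E12 endoderm, 4 were lower and 2 higher in villi than in E12 endoderm, and 2 were lower and 3 higher in villi than in crypts. The 3 became 1 without crypt K21, villus V12 or villus V41 and with the median of probe sets, and the 1 higher in crypts became 0 without crypt K12 or K21. Ezh1, the second methyltransferase of PRC2, ran opposite to Ezh2. It stood at 8.13 ± 0.31 in villi and 7.43 ± 0.18 in crypts (SD, n = 3 each) and at 6.86 in E12 endoderm. It was higher in villi than in crypts by 0.70 ± 0.19 (adjusted p = 0.0276) and than in E12 endoderm by 1.27 ± 0.27 (adjusted p = 0.00801), while its 0.57 in crypts over E12 endoderm did not pass (adjusted p = 0.162). Phf1, a Polycomb-like accessory protein, was higher in villi than in crypts by 0.80 ± 0.16 and in crypts than in E12 endoderm by 0.95 ± 0.23. Its relative Mtf2 was lower in crypts than in E12 endoderm by -1.90 ± 0.26, as was Aebp2, another accessory gene, by -1.48 ± 0.25. The histone binding genes Rbbp7 and Rbbp4, read by probe sets that may also bind related transcripts, were lower in villi than in crypts by -1.99 ± 0.21 and -0.90 ± 0.14. Without such probe sets, 3 of the list were lower in crypts than in E12 endoderm and 1 was lower in villi than in crypts.

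Of 12 other PRC1 genes tested, 6 were lower and 1 higher in crypts than in E12 endoderm, and 6 were lower and 0 higher in villi (0 higher at an unadjusted p under 0.05 in limma). Villi against crypts gave 5 lower and 0 higher, and 7 and 1 at an unadjusted p under 0.05. The 5 became 2 without crypt K12 or K21 and 3 without crypt K41 or villus V275. The methyl mark reader gene Cbx2 was lower in crypts than in E12 endoderm by -1.78 ± 0.27. Cbx7, which encodes another reader, was higher there by 0.90 ± 0.25, and lower in villi than in crypts by -1.02 ± 0.18. The first difference was not called without crypt K12, crypt K21 or villus V275. It was also not called with the median of probe sets or without _x_at and _s_at probe sets. Pcgf6, which encodes a counterpart of Bmi1 in another form of the complex, was lower in villi than in crypts by -1.14 ± 0.22 and than in E12 endoderm by -2.51 ± 0.32. Between the E12 layers 3 of 13 were higher and 5 lower in endoderm, and 3 were lower without endoderm 3 or 4 or any 1 of the mesenchyme arrays. Pcgf6 was higher there by 1.52 ± 0.11, and Yaf2, a subunit of other PRC1 forms, was lower by -1.25 ± 0.12. Among 8 other PRC2 genes tested between the layers 3 were higher and 1 lower, with Mtf2 at 0.45 ± 0.16 and Phf1 at -0.90 ± 0.17. Epop, also among the higher genes, was at 1.38 ± 0.28, with means of 5.85 in endoderm and 4.47 in mesenchyme. The mesenchyme mean lay under 4.74, and Epop was tested only through its 3 endoderm arrays, so a difference was bound to follow. The size is not exact, and Epop dropped out of the fit when any endoderm array was left out. The 3 higher genes became 1 without mesenchyme 3, mesenchyme 4 or endoderm 2, 2 without endoderm 3 and 0 without endoderm 4.

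**Figure D5:**
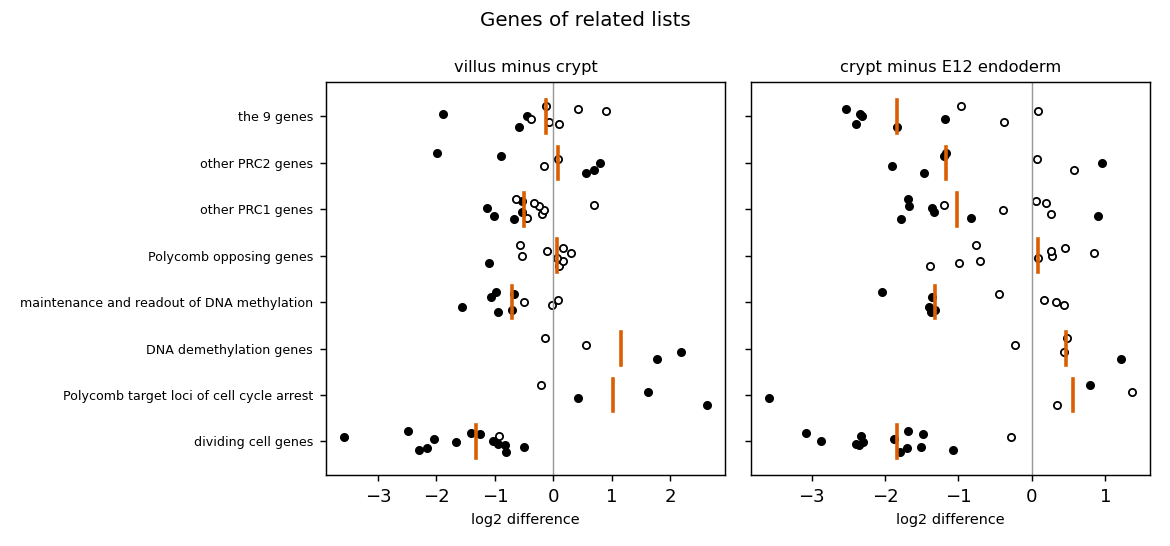
Log2 difference (horizontal axis) of each tested gene of the 9 and of 7 related lists, villi minus crypts (left) and crypts minus E12 endoderm (right), with filled points for an adjusted p under 0.05 in limma and a bar at the median of each list. The dividing cell genes lie at a median of -1.33 and -1.84, and the genes that oppose Polycomb at 0.07 and 0.09.

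Part of the genes that maintain or read DNA methylation were lower in adult tissue. Of 9 tested, 5 were lower in crypts and 6 in villi than in E12 endoderm, and 6 were lower in villi than in crypts, with 0 higher in each, also at an unadjusted p under 0.05 in limma. Dnmt1, which copies methylation after replication, stood at 7.32 ± 0.13 in villi and 8.88 ± 0.16 in crypts (SD, n = 3 each) and at 10.29 in E12 endoderm. It was lower in villi than in crypts by -1.56 ± 0.15 (adjusted p = 0.000444), where Dnmt3a and Dnmt3b gave the small differences above. Uhrf1, which brings Dnmt1 to new DNA, was lower in crypts than in E12 endoderm by -2.04 ± 0.19 and in villi by -3.01 ± 0.19. Between the E12 layers 5 of 8 were higher in endoderm and 0 lower (0 at an unadjusted p under 0.05), led by Cdca7l at 1.62 ± 0.09 and with Uhrf1 at 0.52 ± 0.10, and 3 without mesenchyme 3 or endoderm 4. In crypts against E12 endoderm the members not called included Dnmt3l (0.43), a cofactor of de novo methylation, and the methyl-CpG binding genes Mbd1 (0.33) and Mbd2 (0.17).

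Of 9 genes that oppose Polycomb, 0 were called in crypts against E12 endoderm, and limma gave 1 higher and 4 lower at an unadjusted p under 0.05. This count depended on single arrays, with 4 lower without villus V41, 2 lower without villus V12 and 1 higher without villus V275 or under quantile normalization. The largest difference there was that of the histone methylation cofactor gene Ash2l (-1.39 ± 0.44, adjusted p = 0.0577). In villi against E12 endoderm 1 was higher (Kmt2c, 1.16 ± 0.30) and 2 were lower (Asxl1, -2.09 ± 0.32, and Wdr5, -1.33 ± 0.29), and in villi against crypts Asxl1 alone was called, at -1.10 ± 0.23. Without villus V41 the first of these counts was 2 higher and 3 lower, and without villus V12 or V275 the second was 2 lower. Between the E12 layers 2 were higher in endoderm (Asxl1 and Wdr5) and 0 lower (0 at an unadjusted p under 0.05), with 0 to 4 higher when an array was left out (0 without mesenchyme 4, 4 without mesenchyme 2, and 1 without mesenchyme 3, endoderm 2 or endoderm 4).

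Of 4 demethylation genes, 2 were higher and 0 lower in villi both against crypts and against E12 endoderm, with medians of 1.17 and 1.48. The cytidine deaminase gene Apobec1 was higher in villi than in crypts by 1.77 ± 0.26 and than in E12 endoderm by 2.98 ± 0.36. It was higher in crypts than in E12 endoderm by 1.21 ± 0.36, a call lost without any 1 of the 3 crypt arrays. Tet1 and Gadd45b were also tested and were not called in any of these comparisons. No probe set carried only the symbol of Tet2, Tet3 or Tdg, so these genes could not be read. The higher counts therefore rest on Apobec1 and Gadd45a alone. Gadd45a, a stress response gene, was the other call in villi, with means of 7.35 in villi, 5.17 in crypts and 4.73 in E12 endoderm. Its crypt and E12 endoderm means lay under 5.78, and it was tested only through its 3 villus arrays, so a difference was bound to follow and its size is not exact. It dropped out of the fit when any villus array was left out, and the demethylation genes called in villi were then 1 against E12 endoderm, and 1 against crypts without villus V41 or V275. The medians of the list were then 0.49 to 0.68 against crypts and 0.35 to 0.45 against E12 endoderm, so the medians above rest in part on Gadd45a. Between the layers 0 of 3 were called, also at an unadjusted p under 0.05, and 1 was called without endoderm 2.

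Arrest genes that Polycomb complexes are known to silence in other cells differed more widely. Cdkn2a, the best known of these targets, lay under the 30th percentile in every group and was not tested, with means of 4.89 in villi, 4.90 in crypts and 4.97 in E12 endoderm. Its neighbour Cdkn2b stood at 9.95 ± 0.38 in villi and 8.33 ± 0.81 in crypts (SD, n = 3 each) and at 6.96 in E12 endoderm, and it was higher in villi than in crypts by 1.63 ± 0.39 (adjusted p = 0.0167). Cdkn1a, an inhibitor of cell division, was higher in villi than in crypts by 2.63 ± 0.27 (adjusted p = 0.000545). Cdkn1c, an imprinted inhibitor, ran the other way, lower in crypts than in E12 endoderm by -3.58 ± 0.19 (adjusted p = 8.2e-05). Of the 4 tested, 3 were higher in villi than in crypts, and 3 were higher and 1 lower in villi than in E12 endoderm. The 3 higher than in crypts became 1 without crypt K12 or K21. Between the E12 layers Cdkn1a (2.75 ± 0.13) and Cdkn2b (1.76 ± 0.21) were higher in endoderm, and Cdkn1c (-2.12 ± 0.12) and Cdkn2c (-0.67 ± 0.14) were lower.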

How the data were processed

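RNA from 14 samples was measured on single-colour arrays with 22690 probe sets. The deposited values are log2 signals that the authors made with RMA, per the submitters' processing notes; the RMA version is not given in the sources used here. Each table was normalized on its own, so tests stayed within a table. RMA compresses differences near the bottom of the range, and arrays give no read depth, so their number limits the precision. Probe sets were named through the platform annotation: 20380 had 1 symbol and were used, 691 had several, 1555 had none and 64 were controls. No array was a copy of another.

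Tests came from limma 3.58.1 under R 4.3.3 (lmFit, then eBayes). Adjusted p-values are those of Benjamini and Hochberg across every gene of a fit, and each fit had 4 residual degrees of freedom. Crypts and villi were tested against E12 endoderm in a fit of the 8 arrays of the first table, villi against crypts on the 6 adult arrays, and the E12 layers on the 6 arrays of the second table. The code was tested on simulated data. The members and all lists were chosen with earlier results of these data known, so they are described by counts and medians. Named genes were the 9 members, the 2 largest rises and the 2 largest falls among the called genes of each list in a comparison (or, with no call, the gene that differed most), and the 3 genes most alike to 4 members; the text gives part of these, and Ezh1, Cdkn2a and Dnmt1 are also given where they were not called.

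Layers of the second table share replicate numbers in their titles. Deviations from the group means correlated at 0.21, 0.23 and 0.11 for the same-numbered samples. Endoderm 3 and mesenchyme 4 also correlated at 0.13. The numbers may pair the pools, but the main fit of the layers was unpaired. The replicate number entered as a block only among the alternatives. Nothing says that adult samples with equal numbers came from the same mouse, and whether adult replicates were separate animals is not stated for each, so p-values measure the spread between these samples. Alternatives changed the summary of probe sets, the dim filter, the normalization, the prior, the replicate block and the arrays included.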

Additional observations from a re-analysis of the deposited data

How the results depend on the processing

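Over the alternatives, the count of the 9 genes called was 4 to 7 for crypts against E12 endoderm, for villi against E12 endoderm and for the E12 layers, and 0 to 4 for villi against crypts. It moved by over 1.5 times for villi against E12 endoderm when every tested probe set of a gene had to pass in the same direction (4 called, against 7), and for villi against crypts when an array was left out (0 to 2 called, against 3). The median of a gene's probe sets turned the sign of Jarid2 in crypts against E12 endoderm (-1.03), of Jarid2 (-0.13) and Rnf2 (0.17) in villi against E12 endoderm, of Dnmt3a in villi against crypts (-0.00305) and of Rnf2 between the layers (0.15), and it ended the calls of Eed, Rnf2 and Dnmt3a in crypts and of Suz12, Rnf2 and Dnmt3a in villi against E12 endoderm; it added calls for Dnmt3b in crypts (-0.85) and villi (-0.94). Jarid2 in crypts against E12 endoderm was at -0.73 over each probe set and at -0.73 without _x_at and _s_at probe sets, and Suz12 in villi against crypts was at 0.21 without them. Leaving out an array gave -0.11 to 0.19 for Jarid2 in crypts against E12 endoderm, -0.028 to 0.21 for Dnmt3a, -0.19 to 0.11 for Dnmt3b and -0.35 to 0.066 for Suz12 in villi against crypts, and -0.17 to 0.12 for Rnf2 between the layers. Ezh2, Bmi1 and Hells kept their calls against E12 endoderm in all 12 alternatives of each comparison. Hells in villi against crypts passed the dim filter only through its crypt arrays, so its alternatives under that filter say nothing about stability.

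Over all genes, 2347 were called for crypts against E12 endoderm and 1339 without crypt K21, and 3182 for villi against crypts and 1849 without crypt K21. Quantile normalization changed the split in crypts against E12 endoderm to 1014 higher and 1170 lower, against 827 and 1520. With the replicate number as a block, Jarid2 was also called in villi against crypts (0.91, adjusted p = 0.0395 in limma, consensus correlation 0.11), where same-numbered adult samples correlated at 0.16 and 0.07, and 4 of the 9 genes were called; between the layers the block called 7 and changed no call but that of Jarid2. The causes of these changes were not tested. A lone E12 array and signals near background limit the comparisons with E12 endoderm.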
